A study of Drosophila melanogaster with 2 samples.

Results

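The regions described here are 8733 weak peaks of chromatin immunoprecipitation followed by sequencing (ChIP-seq) for the homeodomain protein Bsh in *Drosophila melanogaster* embryos. Each had a summit nearby in both replicates, and none belongs to the authors' reproducible set. These peaks make up 29.1% of the 30000 peaks called on the pooled replicates. They were selected on measured values: a peak of the pooled list was kept when it overlapped no peak of the authors' reproducible set by 1 bp or more, and when its summit lay within 100 bp of a summit in each of the 2 replicate lists. They are called weaker shared peaks. The authors' reproducible set is named for the irreproducible discovery rate (IDR), which judges how alike peaks rank in the replicates. It holds 7927 peaks, called IDR peaks, and these are the strongest of the pooled list, at ranks 1 to 7927. Single IDR peaks had a nearest summit ranked as low as 29957 in replicate 1. The weaker shared peaks thus lie below a cut in pooled strength. A further 12532 peaks of the pooled list overlap no IDR peak and lack a summit within 100 bp in at least 1 replicate, and are called weaker unshared peaks. The remaining 808 peaks are weaker but overlap an IDR peak and were set aside.

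The embryos were whole organisms aged 10 to 12 h from a transgenic line that stably carries bsh fused at its C-terminal end to green fluorescent protein (GFP), and the tagged protein was precipitated with an antibody to GFP. There were 2 biological replicates of this 1 group, so no conditions could be compared, and tests were made between sets of peaks. Each of the replicate and pooled lists was called with the same control file, which was not analysed here, and each holds 30000 peaks, so that its length is a set limit. The lists give no numbers of reads, so the depth behind them is unknown.

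Bsh, the product of brain-specific homeobox, is a transcription factor with a homeodomain that specifies neurons of the lamina and medulla in the optic lobe. Homeodomains of its kind bind short AT-rich sites built around TAAT, of which the palindrome TAATTA is a common form. Promoters of broadly used fly genes carry other elements, among them the DNA replication-related element (DRE, TATCGATA), bound by DREF and BEAF-32, and the core promoter element called Motif 1 (GGTCACAC), bound by M1BP. Forkhead proteins bind sites of the form TGTTTAC.

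The sequences below are the bases within 50 bp either side of the summit of 6 weaker shared peaks, shown because each holds a motif or a run of 6 letters (6-mer) on which the sequence results turn. Each is the strongest peak with that match on the 5 arms searched, except that for the DRE it is the strongest in a promoter, and for ACAGTG the strongest not already shown, since the CG13365 window holds ACACTGT, which contains both 6-mers. They were read 5′ to 3′ on the plus strand from the RefSeq copy of genome release 6 (dm6), and capitals mark the match on either strand. The DRE lies at chr2L:19453522-19453622 in the promoter of Top2, a DNA topoisomerase. Motif 1 lies at chr3R:16453814-16453914 in the promoter of Pak3, a p21-activated kinase. The forkhead site lies at chr3R:24139205-24139305 in an intron, with the transcription start site (TSS) of Npc2f nearest. The 6-mer ACACTG lies at chrX:621175-621275 in the promoter of CG13365. The 6-mer ACAGTG lies at chr3R:20547364-20547464 in an intron, with the TSS of Stat92E, the transcription factor of JAK/STAT signalling, nearest. The homeodomain palindrome lies at chr3L:7811095-7811195 between genes, 1320 bp from the TSS of CG32369.
Top2 promoter, DRE: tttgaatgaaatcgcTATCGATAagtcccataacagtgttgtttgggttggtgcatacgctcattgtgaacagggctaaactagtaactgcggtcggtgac
Pak3 promoter, Motif 1: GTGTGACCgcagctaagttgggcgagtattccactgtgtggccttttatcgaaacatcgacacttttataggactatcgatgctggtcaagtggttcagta
intron near Npc2f, forkhead site: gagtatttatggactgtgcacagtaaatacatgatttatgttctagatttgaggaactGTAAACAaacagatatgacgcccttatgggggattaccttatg
CG13365 promoter, ACACTG: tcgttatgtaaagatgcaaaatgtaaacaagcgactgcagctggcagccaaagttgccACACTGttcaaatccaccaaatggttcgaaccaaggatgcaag
intron near Stat92E, ACAGTG: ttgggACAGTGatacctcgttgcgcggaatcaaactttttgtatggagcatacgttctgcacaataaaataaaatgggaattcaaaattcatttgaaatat
intergenic near CG32369, homeodomain palindrome: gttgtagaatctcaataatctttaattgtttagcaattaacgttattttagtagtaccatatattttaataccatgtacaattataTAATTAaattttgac

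The weaker shared peaks begin where the IDR peaks end. Their signal value, a score per peak from the caller the authors used, ranged between 27.1 and 151.451 in the pooled list with a median of 79.5, whereas IDR peaks began at 151.457 with a median of 312 and weaker unshared peaks had a median of 37.7. These values chose the peaks and are given as a description. The 3 strongest weaker shared peaks held pooled ranks 7928, 7929 and 7930, directly below the last IDR peak at rank 7927. Of the weaker peaks that overlap no IDR peak, 41.1% were shared. The share was 88.8% of all peaks at pooled ranks 8001 to 10000, 48.2% at ranks 16001 to 18000 and 1.45% at ranks 28001 to 30000. Embryos of this age hold many cell types, and a site bound weakly in many cells cannot be told apart from a site bound strongly in few.

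Ranks in the replicates are also confined by the choice of peaks, which left out the IDR peaks and asked for a summit in each list of 30000, and are given as a description. In replicate 1 the weaker shared peaks had a median rank of 14557 (range 5770 to 29994), and in replicate 2 a median rank of 14591 (range 4653 to 29999). Neither replicate ranked them higher on the whole, since 50.1% ranked higher in replicate 1 than in replicate 2. Single peaks ranked less alike: across the 8733 peaks, which share the control file and the pooled list they were drawn from, the ranks had a Spearman correlation of 0.476 and the log2 signal values a Pearson r of 0.463. The worse rank was within 2 times the better for 8016 peaks (91.8%). Of the 8733, 295 were among the 7927 strongest of replicate 1, 453 among those of replicate 2, and 2 among those of both. Both of these are named here: the promoter peak of pcs, a gene known as parcas, with rank 7082 in replicate 1 and 7593 in replicate 2, and the intronic peak nearest to Boh2, with ranks 7607 and 7887.

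Summit distances are a description, since the rule capped them at 100 bp and the pooled summits come from the same replicates. The nearest summit lay a median of 13 bp away in replicate 1 and 24 bp away in replicate 2, and within 25 bp for 64.0% and 53.2% of the peaks. Just inside the limit, 442 weaker shared peaks had their farther replicate summit at 91 to 100 bp, with a median signal value of 64.4, and just outside it 371 weaker unshared peaks had it at 101 to 110 bp, with a median of 60.4. Of the weaker shared peaks, 92.8% had a width of 376 bp, as had 10.1% of IDR peaks. The authors' −log10 q-value was at its maximum of 4.33 for 27.6% of weaker shared peaks and for 1.88% of weaker unshared peaks. Together the weaker shared peaks covered 3113198 bp, 2.33% of the 6 chromosome arms examined.

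**Figure D1:**
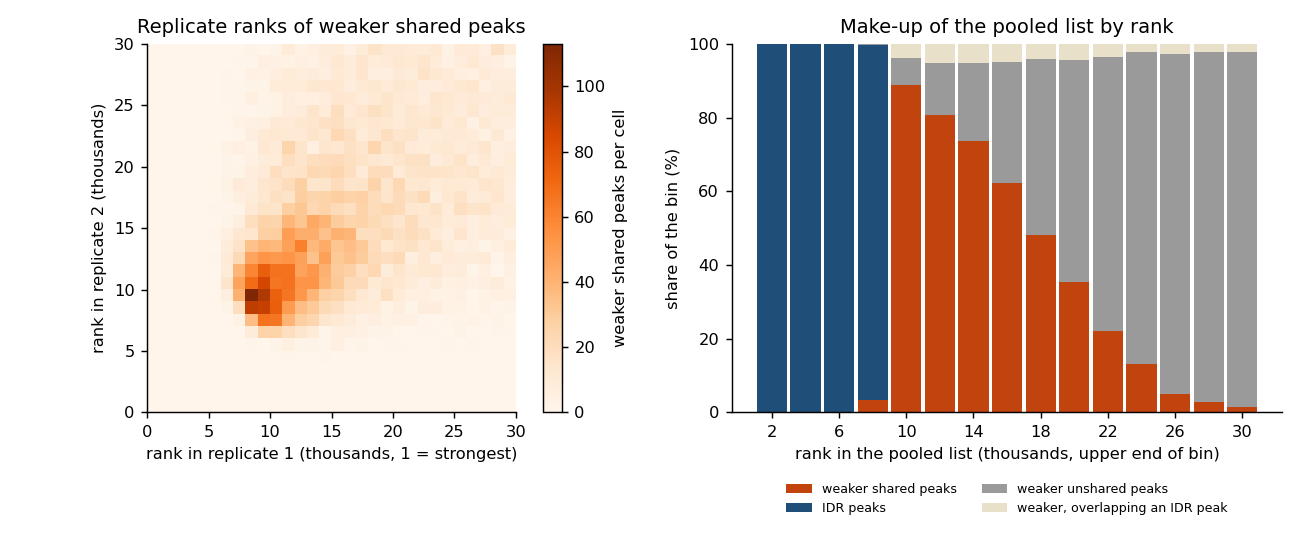
Left, number of weaker shared peaks per cell of 1000 ranks in replicate 1 (x axis) and replicate 2 (y axis), rank 1 being the strongest. Right, share of each bin of 2000 pooled ranks held by weaker shared peaks, IDR peaks, weaker unshared peaks and weaker peaks that overlap an IDR peak. The weaker shared peaks crowd at ranks just below 7927 in both replicates and thin out toward rank 30000, and their share of a bin is 88.8% at ranks 8001 to 10000 and 1.45% at ranks 28001 to 30000.

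Among the 20 strongest weaker shared peaks, 10 summits lay in introns, 6 between genes, 3 in promoters and 1 in a 3′ UTR. The strongest, with a signal value of 151 and ranks 6941 and 10906 in replicates 1 and 2, lay between genes, 15256 bp from the TSS of CG13323. The next lay 13 bp from a TSS of Sema1a, a transmembrane semaphorin that guides axons, with ranks 9066 and 8280. Intronic peaks followed nearest to shn, a zinc finger protein of Dpp signalling (ranks 9670 and 6300), Egfrap (8984 and 8907), sima, the fly hypoxia-inducible factor alpha (6887 and 10797), Pli, the fly Pellino (8710 and 8364), and gish, a casein kinase (7615 and 9556). Other intronic peaks had the TSS of CG9815, CG9801, Npc2f and ari-1, a ubiquitin ligase, nearest. A peak 6287 bp from the TSS of Dr, a homeodomain factor of muscle and dorsal neuroblasts, ranked 7705 in replicate 1 and 9053 in replicate 2. The other intergenic peaks lay nearest to CG10874, PVRAP, Syx7 and CG45544. The other promoter peaks were those of spartin and CG14441, and the peak in the 3′ UTR had the TSS of CG1572 nearest.

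Of the 10 weaker shared peaks with the best worse rank, 7 were intronic. After pcs and Boh2 came an intergenic peak nearest to CG11369, with ranks 7940 in replicate 1 and 7896 in replicate 2. The promoter of tai (taiman), a coactivator of the ecdysone receptor, had a peak with ranks 8043 and 7884. Introns held the peaks nearest to Bicra, CG13482, Dmtn, Gmap, a Golgi protein, msn (misshapen), a kinase of JNK signalling, and Srpk79D, an SR protein kinase. Their worse ranks lay between 8058 and 8204. At the other end, the 3 weakest of all had their summits nearest to the TSS of Ser, Ubc6 and ninaC, with signal values of 27.1 to 27.4.

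Weaker shared peaks lay in promoters less often than IDR peaks and more often than weaker unshared peaks. A summit was classed as promoter when it lay within 500 bp of an annotated TSS. Of the weaker shared summits, 29.6% were (95% exact binomial interval 28.7 to 30.6), against 36.1% of IDR summits (35.1 to 37.2) and 20.8% of weaker unshared summits (20.1 to 21.5), where promoters make up 13.6% of the bases. The odds ratio was 0.745 against IDR peaks (exact Fisher test, adjusted p = 2.3e-18) and 1.60 against weaker unshared peaks (exact Fisher test, adjusted p = 8.0e-48). Coding exons showed the opposite order. They held 123 weaker shared summits, 1.41% (1.17 to 1.68), against 14 IDR summits, 0.177% (0.0966 to 0.296), and 736 weaker unshared summits, 5.87% (5.47 to 6.30), with 13.1% of the bases. The odds ratio was 8.07 against IDR peaks (adjusted p = 3.1e-20) and 0.229 against weaker unshared peaks (adjusted p = 2.7e-66), both by the exact Fisher test. When no summit was asked for in the list of replicate 1, called without replicate 1, these odds ratios were 15.4 and 0.406. Without replicate 2, in the same sense, they were 17.7 and 0.480. The pooled list and the IDR peaks still came from both replicates. These intervals and tests treat summits as independent and say nothing of the spread between embryos.

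Introns held the most summits in all 3 sets, with 43.9% of weaker shared, 42.3% of IDR and 45.5% of weaker unshared summits, and 39.5% of the bases. Both differences passed the exact Fisher test (odds ratio 1.07, adjusted p = 0.0406 against IDR peaks, and 0.938, adjusted p = 0.0325 against weaker unshared peaks), and neither call held in every alternative tried. Intergenic sequence held 21.5% of weaker shared summits against 18.6% of IDR summits (odds ratio 1.20, adjusted p = 9.7e-06 by the exact Fisher test). The share in weaker unshared peaks was 22.5% (odds ratio 0.942, exact Fisher test, adjusted p = 0.0942), and this difference missed the threshold. In 3′ UTRs lay 1.56% of weaker shared, 1.06% of IDR and 2.82% of weaker unshared summits, and in 5′ UTRs 0.973%, 0.555% and 1.35%. All 4 UTR differences passed the exact Fisher test, with adjusted p between 2.5e-09 and 0.0227. Other exons held 0.950%, 1.15% and 1.09%, with no difference past the threshold.

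**Figure D2:**
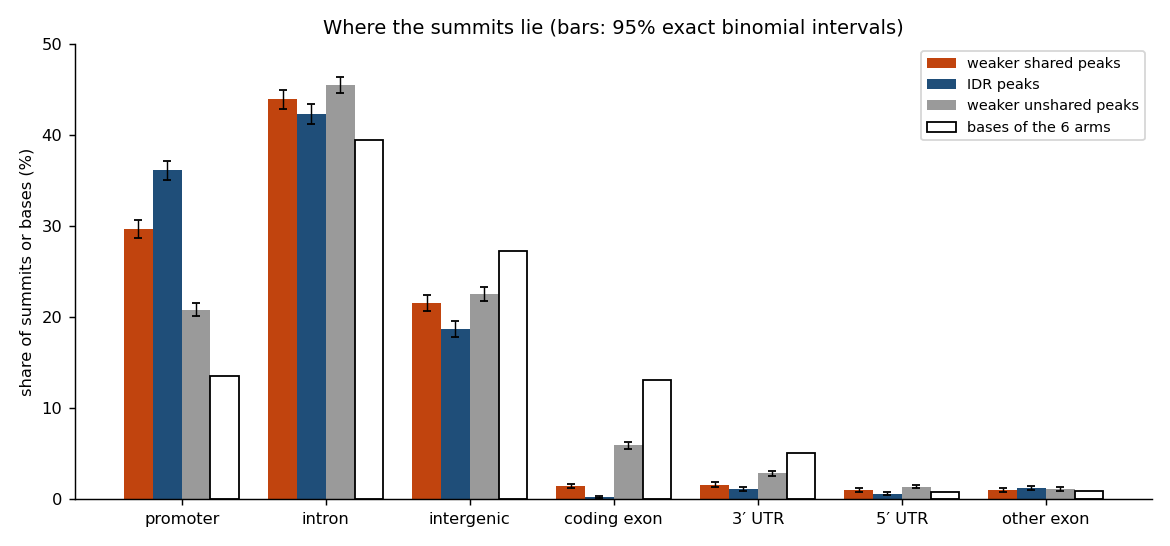
Share of summits in each location class, in percent, for weaker shared peaks, IDR peaks and weaker unshared peaks, with 95% exact binomial intervals, and the share of bases of the 6 arms in open bars. The promoter share of the weaker shared peaks, 29.6%, lies between that of IDR peaks and that of weaker unshared peaks, and so does their coding exon share of 1.41%.

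The location of weaker shared peaks moved with their strength. In bins of 2000 pooled ranks, promoters held 36.0% of weaker shared summits at ranks 8001 to 10000, 27.2% at ranks 14001 to 16000 and 18.6% at ranks 20001 to 22000. Coding exons held 0.507%, 1.21% and 4.55% in the same bins. Bins at the ends, with few weaker shared peaks, left this order. Promoters held 20.3% of 69 summits at ranks 6001 to 8000 and 27.6% of 58 at ranks 26001 to 28000. Coding exons held 1.01% of 99 summits at ranks 24001 to 26000. Within the bins, weaker shared and weaker unshared peaks did not differ past the threshold in any of the 7 classes, by a Mantel-Haenszel test across the bins that was chosen after seeing the data. For promoters the pooled odds ratio was 0.959 with a 95% interval of 0.881 to 1.04 and an adjusted p = 0.383 (n = 8733 weaker shared and 12532 weaker unshared peaks), on the other side of 1 from the value over all ranks. For coding exons it was 0.880 (0.692 to 1.12) and for introns 1.04 (0.965 to 1.12), for introns again on the other side, with the same adjusted p. The class nearest to the threshold was the 3′ UTR, with an odds ratio of 0.754 (0.578 to 0.984) and an adjusted p = 0.263 (n = 8733 weaker shared peaks). The differences in location between weaker shared and weaker unshared peaks given above were thus called over all ranks, and none was called at matched rank. The pooled odds ratio averages over bins, and the promoter share of weaker shared peaks was the lower in some bins and the higher in others. IDR peaks share no pooled rank with weaker shared peaks, so set and strength cannot be told apart in comparisons with them.

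The 4367 weaker shared peaks of higher signal value did not differ from IDR peaks past the threshold in any of the 4 main classes. Their odds ratio was 0.956 for promoters (adjusted p = 0.297), 1.95 for coding exons (adjusted p = 0.125), 1.00 for introns (adjusted p = 0.954) and 1.04 for intergenic sequence (adjusted p = 0.430), by the exact Fisher test. In 4 groups of equal size by signal value, strongest first, promoters held 35.8%, 34.4%, 26.5% and 21.9% of weaker shared summits.

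**Figure D3:**
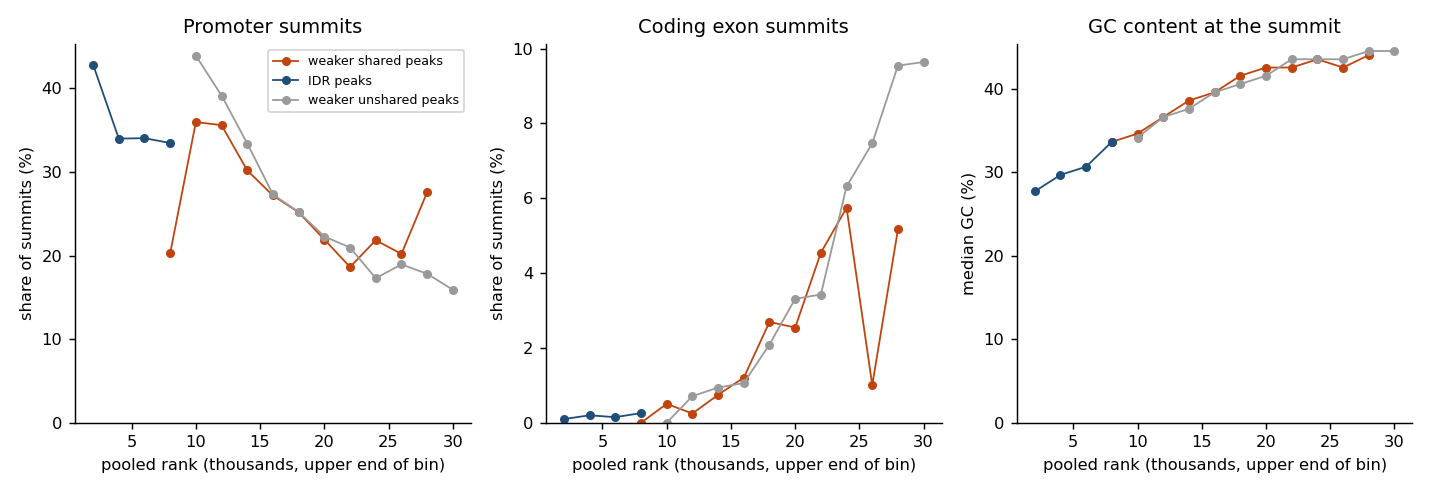
Promoter share of summits, coding exon share of summits and median GC content of the 101 bp around the summit, in percent, by bin of 2000 pooled ranks, for weaker shared peaks, IDR peaks and weaker unshared peaks, for bins with at least 50 peaks of the set. The promoter curves of weaker shared and weaker unshared peaks cross. The shares are 36.0% and 43.9% for ranks 8001 to 10000, and both are 25.2% for ranks 16001 to 18000. For ranks 26001 to 28000 they are 27.6% (58 weaker shared peaks) and 17.8%. Coding exon shares are 1.01% (99 weaker shared peaks) and 7.47% for ranks 24001 to 26000.

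Within promoters, weaker shared summits sat closer to the TSS than those of both other sets. The median distance was 96 bp for weaker shared, 135 bp for IDR and 149 bp for weaker unshared promoter summits. Within 50 bp of the TSS lay 31.6% of weaker shared promoter summits, against 16% of IDR promoter summits (odds ratio 2.42, exact Fisher test, adjusted p = 7.2e-42) and 21.5% of weaker unshared promoter summits (odds ratio 1.69, exact Fisher test, adjusted p = 1.3e-16). This difference from weaker unshared peaks also passed within rank bins, with an odds ratio of 1.24 and an unadjusted p of 0.00968 by the Mantel-Haenszel test (n = 2589 weaker shared promoter summits). Upstream of the TSS lay 58.7% of weaker shared promoter summits, against 78.5% of IDR promoter summits (odds ratio 0.388, exact Fisher test, adjusted p = 3.2e-56) and 52.7% of weaker unshared promoter summits (odds ratio 1.27, exact Fisher test, adjusted p = 1.5e-05). Within rank bins the last difference turned, with an odds ratio of 0.920 that missed the threshold (unadjusted p = 0.263, n = 2589 weaker shared promoter summits). These tests of position were chosen after seeing the data.

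Weaker shared peaks were spread over the arms much like the other sets, with a larger share on X. X held 21.1% of weaker shared summits, against 19.4% of IDR summits (odds ratio 1.11, exact Fisher test, adjusted p = 0.0206) and 18.1% of weaker unshared summits (odds ratio 1.21, exact Fisher test, adjusted p = 1.1e-06). The right arm of chromosome 3 held 20.5% of weaker shared and 22.5% of IDR summits (odds ratio 0.890, exact Fisher test, adjusted p = 0.0124). The other 9 of the 12 comparisons of arms did not pass, and without replicate 1 only 1 of the 12 did. Of the weaker shared summits, 18.0% lay within 1000 bp of an IDR summit, against 14.8% of weaker unshared summits, and 12.9% lay over 10000 bp from the nearest IDR summit, against 13.5% of weaker unshared summits.

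At the summit, weaker shared peaks carried the DRE, Motif 1 and forkhead sites, but not the homeodomain palindrome, more often than neighbouring sequence. Motifs were searched on both strands in the 101 bp around the summit and in a flank of the same width centred 500 bp to the right, and the odds divide the peaks with the motif at the summit only by those with it in the flank only. Of 22 motifs, 9 passed the exact McNemar test, 7 of them more frequent at the summit. The DRE was in 1.32% of summit windows and 0.240% of flanks (odds 5.48, exact McNemar test, adjusted p = 1.5e-15), with 0.275% of all genome windows of this width holding it. Motif 1 was in 1.11% and 0.218% (odds 5.11, exact McNemar test, adjusted p = 4.7e-13; 0.210% of genome windows). Motif 7, a core promoter element searched as CATCNCTA, was in 1.05% and 0.447% (odds 2.36, exact McNemar test, adjusted p = 1.8e-05; 0.635% of genome windows). Forkhead sites were in 4.53% and 2.37% (odds 1.94, exact McNemar test, adjusted p = 4.5e-14; 1.89% of genome windows). These motifs were not particular to weaker shared peaks. In IDR and weaker unshared peaks the odds were 5.77 and 3.42 for the DRE and 2.19 and 2.70 for Motif 1. They were 1.87 and 1.34 for Motif 7 and 1.94 and 1.31 for forkhead sites. All of these passed the exact McNemar test save Motif 7 in weaker unshared peaks. The TATA box (TATAAA, in 11.7% of genome windows) had odds of 1.44 (exact McNemar test, adjusted p = 2.7e-15). It is 1 of 36 6-mers made of A and T alone, whose odds ran from 1.01 to 1.64 with a median of 1.32. The GATA factor site GATAAG (4.22% of genome windows) had odds of 1.25 (exact McNemar test, adjusted p = 0.00571). The posterior Hox site TTTATNG (9.76% of genome windows) had odds of 1.16 (exact McNemar test, adjusted p = 0.00835). Less frequent at the summit were the homeodomain core CAATTA, which shares AATTA with the palindrome and is in 9.27% of genome windows, with odds of 0.876 (exact McNemar test, adjusted p = 0.0302), and the Snail-type E-box CAGGTG, in 3.99% of genome windows, with odds of 0.816 (exact McNemar test, adjusted p = 0.0474). The calls for the GATA site, the posterior Hox site, the homeodomain core and the E-box were each lost in at least 1 alternative, where their odds came as near to 1 as 1.13, 1.08, 0.938 and 0.952.

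The homeodomain palindrome TAATTA was in 6.56% of weaker shared summit windows and 6.5% of their flanks, with 6.47% of genome windows holding it (odds 1.01, exact McNemar test, adjusted p = 0.936). In IDR peaks it was in 10.96% of summit windows and 5.95% of flanks (odds 1.91, exact McNemar test, adjusted p = 5.0e-28), and in weaker unshared peaks in 6.10% and 7.18% (odds 0.840, exact McNemar test, adjusted p = 0.00276). The share at weaker shared summits was below that at IDR summits (odds ratio 0.570, exact Fisher test, adjusted p = 1.4e-22) and did not differ past the threshold from weaker unshared summits (odds ratio 1.08, exact Fisher test, adjusted p = 0.269). Base composition moved with this result. The median GC content was 38.6% at weaker shared summits and 42.6% in their flanks, 30.7% at IDR summits and 43.6% in their flanks, and 42.6% at weaker unshared summits and 41.6% in their flanks. All 36 6-mers made of A and T alone had odds above 1 in weaker shared peaks, with a median of 1.32, and TAATTA had the lowest of them. In IDR peaks the same 36 had a median of 2.59, and TAATTA stood in place 35. The part of base composition in the TAATTA and TATAAA results was not tested.

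**Figure D4:**
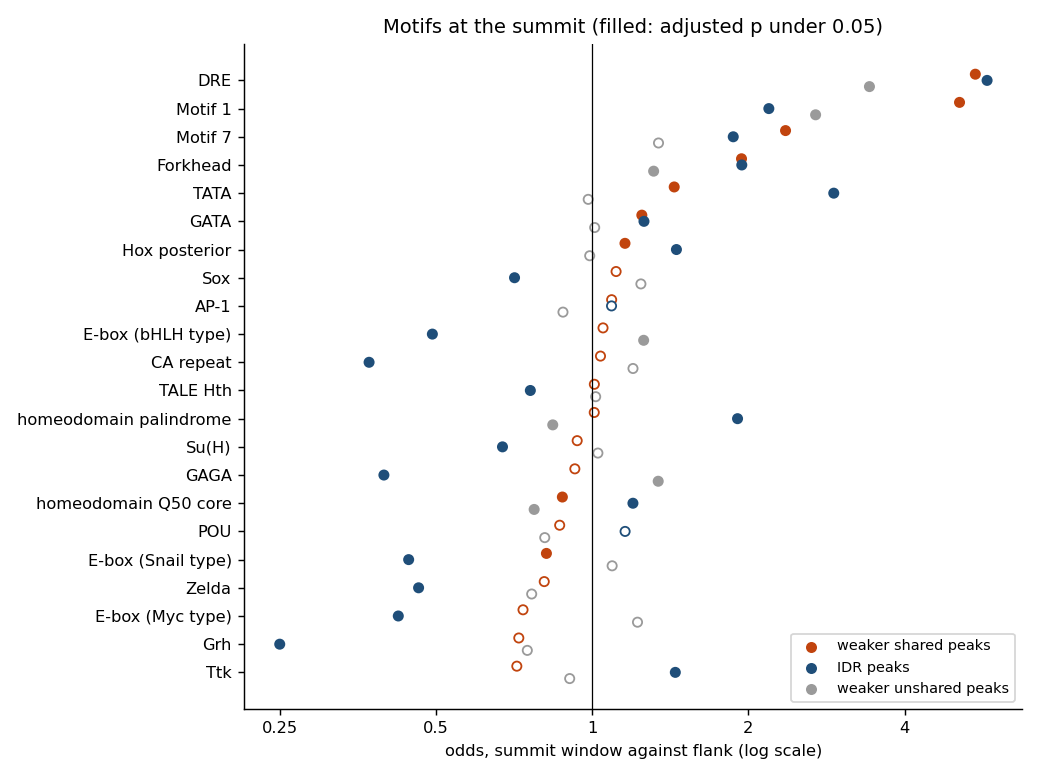
Odds of each of 22 motifs at the summit against the flank, on a log axis, for weaker shared peaks, IDR peaks and weaker unshared peaks. Filled points have an adjusted p under 0.05 by the exact McNemar test. For weaker shared peaks the DRE (5.48) and Motif 1 (5.11) lie farthest to the right, and the homeodomain palindrome (1.01) lies at 1, where IDR peaks have 1.91.

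The DRE, Motif 1 and Motif 7 were called at summits in promoters and not outside them, whereas the TATA sequence was called in both. The TATA sequence was in 13.8% of promoter windows (odds 1.32, exact McNemar test, adjusted p = 0.00592). It was in 16.7% of windows outside promoters (odds 1.49, exact McNemar test, adjusted p = 4.8e-13). The DRE was in 3.90% of the 2589 weaker shared promoter windows, 101 peaks (odds 9.18, exact McNemar test, adjusted p = 1.0e-17), and in 0.228% of the 6144 windows outside promoters (odds 1.40, adjusted exact p = 0.674). Motif 1 was in 3.13% of promoter windows (odds 7.36, exact McNemar test, adjusted p = 4.8e-13) and 0.260% of the others (odds 2.00, adjusted exact p = 0.270), and Motif 7 in 2.12% (odds 3.44, exact McNemar test, adjusted p = 2.1e-05) and 0.602% (odds 1.61, adjusted exact p = 0.179). Outside promoters the peaks with the motif at the summit only and in the flank only were few. They numbered 14 and 10 for the DRE, 16 and 8 for Motif 1 and 37 and 23 for Motif 7. In promoters the odds of the DRE were 8.25 for IDR and 6.67 for weaker unshared peaks. The flank of a promoter summit can lie farther from the TSS, so these odds cannot tell the peak from closeness to a TSS. Forkhead sites were at summits in both places, in 4.48% of promoter windows (odds 1.64, exact McNemar test, adjusted p = 0.0051) and 4.56% of the others (odds 2.10, exact McNemar test, adjusted p = 1.1e-11). In the 4 groups by signal value, strongest first, the odds of the DRE were 8.5, 9.25, 6.75 and 1.89, those of Motif 1 were 4.75, 6.75, 5.33 and 4, and those of forkhead sites 1.93, 2.37, 1.90 and 1.61. Forkhead sites and Motif 1 thus had odds above 1.5 in each of the 4.

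Shares of 12 of the 22 motifs differed between weaker shared and IDR summit windows by the exact Fisher test. The TATA sequence was in 15.8% of weaker shared and 25.6% of IDR windows (odds ratio 0.547, exact Fisher test, adjusted p = 3.4e-53). Motif 1 was in 1.11% against 0.593% (odds ratio 1.88, exact Fisher test, adjusted p = 9.97e-04). GAGA repeats (GAGAGAG, in 1.24% of genome windows), bound by the GAGA factor and CLAMP, were in 1.99% against 0.984% (odds ratio 2.05, exact Fisher test, adjusted p = 4.7e-07), and CA repeats (CACACACA, in 2.09% of genome windows) in 3.25% against 1.29% (odds ratio 2.58, adjusted p = 1.3e-16). Neither repeat was called against the flanks of weaker shared peaks by the exact McNemar test (odds 0.926, adjusted p = 0.618 for GAGA, and 1.04, adjusted p = 0.768 for CA). At IDR summits both were less frequent than in the flanks, with odds of 0.397 and 0.372. Between weaker shared and IDR windows, the DRE, at 1.32% against 0.946% (odds ratio 1.40, exact Fisher test, adjusted p = 0.062), and forkhead sites, at 4.53% against 3.91% (odds ratio 1.17, exact Fisher test, adjusted p = 0.0871), did not differ past the threshold. Alternatives moved these odds ratios to either side of 1, between 0.883 (windows of 100 bp either side) and 1.73 for the DRE and between 0.974 (without replicate 2) and 1.30 for forkhead sites. The highest values, those of the 4367 weaker shared peaks of higher signal value, were the only ones past the threshold. Without replicate 2 the difference for Motif 1 missed the threshold, with an odds ratio of 1.48. Against weaker unshared windows 7 motifs differed by the exact Fisher test, among them the DRE (1.32% against 0.718%, odds ratio 1.84, adjusted p = 7.2e-05), Motif 1 (1.11% against 0.503%, odds ratio 2.22, adjusted p = 3.6e-06) and forkhead sites (4.53% against 2.79%, odds ratio 1.65, adjusted p = 1.5e-10). Without replicate 1 the DRE difference missed the threshold, with an odds ratio of 1.33. Within bins of 2000 pooled ranks none of the 22 did by the Mantel-Haenszel test (lowest unadjusted p = 0.131, n = 8733 weaker shared peaks), and the odds ratios of these 3 were 0.947 for the DRE, 1.08 for Motif 1 and 1.11 for forkhead sites.

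Of all 2080 6-mers, counted on both strands, 301 (14.5%) were more frequent at weaker shared summits than in their flanks and 443 (21.3%) less frequent, by the exact McNemar test with an adjusted p under 0.05. In IDR peaks 533 (25.6%) were more frequent and 1179 (56.7%) less frequent, and in weaker unshared peaks 79 (3.8%) and 67 (3.22%). Of the 301, 266 were also more frequent in IDR peaks and 7 were less frequent there, and 431 of the 443 were also less frequent in IDR peaks. The sets differ in number of peaks, which moves these counts. The highest odds among 6-mers in at least 100 weaker shared windows belonged to ACACTG, in 7.10% of summit windows and 3.33% of flanks (odds 2.21, exact McNemar test, adjusted p = 1.6e-26), followed by ACAGTG, in 6.58% and 3.40% (odds 2.01, exact McNemar test, adjusted p = 8.7e-20), and AGTGTA, in 6.08% and 3.36% (odds 1.89, exact McNemar test, adjusted p = 1.3e-15). TATCGA, which is part of the DRE, came next with odds of 1.73. The first 3 overlap: the complement of ACAGTG is CACTGT and that of AGTGTA is TACACT, so that ACACTGT holds the first pair and TACACTG holds the first and the third.

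These 6-mers were chosen for their odds in weaker shared peaks, and their values in the other sets are given as a description. ACACTG was in 7.10% of weaker shared, 5.31% of IDR and 4.64% of weaker unshared summit windows, and in 3.77% of genome windows. In promoters it was in 10.2% of weaker shared windows, 6.29% of IDR windows and 5.94% of weaker unshared windows. Outside promoters it was in 5.79%, 4.76% and 4.30%. For weaker shared peaks the odds of ACACTG against the flank were 2.89 in promoters and 1.89 outside them. ACAGTG was in 6.58%, 5.08% and 4.78%, with odds of 2 in promoters and 2.02 outside them for weaker shared peaks. ACACTG begins with the letters ACAC that end Motif 1 (GGTCACAC). In the 8527 of 8733 weaker shared windows without an exact DRE or Motif 1, the odds of ACACTG were 2.04 and those of ACAGTG 1.98. Few windows were left out and inexact copies stayed in, so these values cannot separate the 6-mers from the promoter elements. In the 4 groups by signal value, strongest first, the odds of ACACTG were 2.77, 2.48, 1.65 and 2.07, and those of ACAGTG 2.12, 2.61, 1.70 and 1.63. Among the 1360 6-mers with 3 or more letters G or C, 35 were more frequent at weaker shared summits, and after these 2 came CGATAG, which shares letters with the DRE, with odds of 1.67. Among the 6-mers less frequent at the summit, GGAGGA had odds of 0.440.

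By gene, 5119 of 13945 protein-coding genes (36.7%) had a weaker shared summit in their span extended by 2 kb at each end, and 2013 (14.4%) had one and no IDR summit. Of the 5119, 3106 (60.7%) also had an IDR summit, and these were 53.2% of the 5834 genes with an IDR summit. Of the genes without an IDR summit, 24.8% had a weaker shared summit. Gene length moved with these counts, with a median of 3371 bp for genes with a weaker shared summit and 1646.5 bp for genes with neither kind. A summit in a gene's window can belong to a neighbouring gene.

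Genes with the most weaker shared summits were long. kirre, an adhesion protein of muscle founder cells that spans 394149 bp, had 57, against 44 IDR summits. bun (bunched), a regulator of the TSC22 family, had 28 against 13, and hth (homothorax), a homeodomain Hox cofactor, had 27 against 20. CG42238 had 25 against 9. Eip75B, an ecdysone-induced nuclear receptor, and jing, a zinc finger protein of trachea and glia, had 23 each against 16 each. SKIP had 21 against 16 and fz2, a Wnt receptor, 21 against 15. Svil, the fly supervillin, had 20 against 14, and CG43759 had 19 against 7. Weaker unshared summits were more numerous than weaker shared ones at most of these genes. They numbered 66 at kirre, 54 at hth, 42 each at jing and fz2, and 30 at CG43759. At bun, SKIP and Svil they numbered 29 each. Eip75B had 23, the same as its weaker shared summits, and CG42238 had fewer, with 20.

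Near bsh itself the weaker shared peaks added no summit within the transcribed gene. Within 20 kb of the gene lay 3 of them, against 3 IDR and 4 weaker unshared peaks. The strongest, at chr2L:19788024-19788399 in an intron with the TSS of CdGAPr nearest, had a signal value of 133 and ranks 9202 and 10066 in replicates 1 and 2. The promoter peak of CG10631, at chr2L:19756710-19757085, had 79.1 and ranks 18059 and 11080. The nearest to bsh, 3633 bp away in a coding exon at chr2L:19761955-19762330, had 51.4 and ranks 26552 and 21639.

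Gene lists for the nervous system and other tissues were chosen with earlier results known and are described without a test, beside the 36.7% of all protein-coding genes with a weaker shared summit and the 41.8% with an IDR summit. Lamina neuron regulators had a weaker shared summit at 8 of 16 genes (50%), against an IDR summit at 9, and 3 had a weaker shared and no IDR summit. These were eya, a transcriptional coactivator of eye development, with an intronic peak of signal value 134 and ranks 8404 and 10326 in replicates 1 and 2, pdm3, a POU factor, with a promoter peak of 111 and ranks 10323 and 11478, and svp, a nuclear receptor, with an intronic peak of 88.7 and ranks 11475 and 14285. The svp peak had the TSS of CG44038 nearest. ap, DIP-beta and Dll had neither kind. Medulla regulators had a weaker shared summit at 8 of 19 (42.1%), against an IDR summit at 9, and those without an IDR summit included the homeodomain factors Optix (125) and Rx (71.8), and svp. The Rx peak lay between genes with the TSS of Act57B nearest, and ranked 10968 in replicate 1 and 26513 in replicate 2. The numbers in brackets after a gene are signal values of its strongest weaker shared peak. Neuronal homeodomain factors had one at 21 of 37 (56.8%), against an IDR summit at 22, among them, without an IDR summit, zfh2 (150, in its promoter, ranks 8358 and 7863), nub (142, intronic) and B-H2 (109), while ap, B-H1 and eve had neither. The B-H2 peak lay 10322 bp from the TSS of B-H2 and ranked 9903 in replicate 1 and 26600 in replicate 2.

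Hox genes and cofactors had weaker shared summits at 6 of 11 and IDR summits at 6, and of those with a weaker shared summit abd-A (104, intronic) and tsh (79.1, promoter) had no IDR summit, and Dfd, Scr and exd had neither kind. Temporal factors of neuroblasts had one at 4 of 9, against an IDR summit at 3, with nub and svp lacking an IDR summit and Kr, cas and danr lacking both. Proneural and neuroblast genes had one at 9 of 22 (40.9%), against an IDR summit at 9, with the promoter peaks of SoxN (104) and sna (67.8) and an intergenic peak near wor (72.0) at genes without an IDR summit, and ac, amos and ase without either. Notch pathway genes had one at 10 of 17 (58.8%), against an IDR summit at 13 (76.5%), and those of E(spl)mgamma-HLH (80.1) and E(spl)m5-HLH (49.9) were without an IDR summit, as H and Su(H) were without either. Axon guidance and adhesion genes had one at 31 of 39 (79.5%), against an IDR summit at 27 (69.2%), with robo1 (132), the Slit receptor, Sema2a (131), PlexB (94.4) and Sema1b (85.5) leading those without an IDR summit, and CadN2, Dscam2 and Dscam3 without either. The genes of that list are long, with a median span of 40368 bp. Neuronal function genes had one at 12 of 24 (50%), against an IDR summit at 10, including futsch (123), a microtubule protein of synapses, Csp (117), para (117), the sodium channel, and nAChRbeta1 (114) without an IDR summit, while Rdl, Rim and Sh had neither. The para peak lay in a 3′ UTR with the TSS of eIF4H1 nearest. The nearest TSS was that of CG44869 for the wor peak and that of E(spl)m6-BFM for the E(spl)m5-HLH peak. Glial genes had one at 9 of 16 (56.2%), against an IDR summit at 10, and of the 9 drpr (143, promoter), an engulfment receptor, had no IDR summit, and Eaat1, Nrx-IV and alrm had neither.

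Lists for other tissues ranged between 38.5% and 83.3%. Their median gene spans ranged between 3465 bp for gut and fat body genes and 23088 bp for trachea and epidermis genes. Mesoderm and muscle genes had weaker shared summits at 18 of 26 (69.2%), against IDR summits at 14. Without an IDR summit were Tm2 (127), Mhc (104, promoter), the muscle myosin heavy chain, sns (69.7, promoter) and sna, and ap, bap and eve had neither kind. Trachea and epidermis genes had one at 15 of 18 (83.3%), against an IDR summit at 15, with m (114) the only gene with a weaker shared summit and without an IDR summit and btl and kni without either. Signalling ligands had one at 16 of 24 (66.7%), against an IDR summit at 16. Lacking an IDR summit were hh (139, with the TSS of CG31457 nearest), Wnt10 (111, with the TSS of ninaC nearest) and upd3 (107). Wnt2, grk and scw lacked both. Gut and fat body genes had one at 6 of 15 (40.0%), against an IDR summit at 7, and of the 6 dve (106) had no IDR summit, with Alp1, Fbp1 and Fbp2 lacking both. Embryonic patterning genes had one at 10 of 26 (38.5%), against an IDR summit at 9, with hh, pan (95.6), en (81.1, promoter) and odd (73.9, promoter) lacking an IDR summit and Kr, eve and ftz lacking both.

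**Figure D5:**
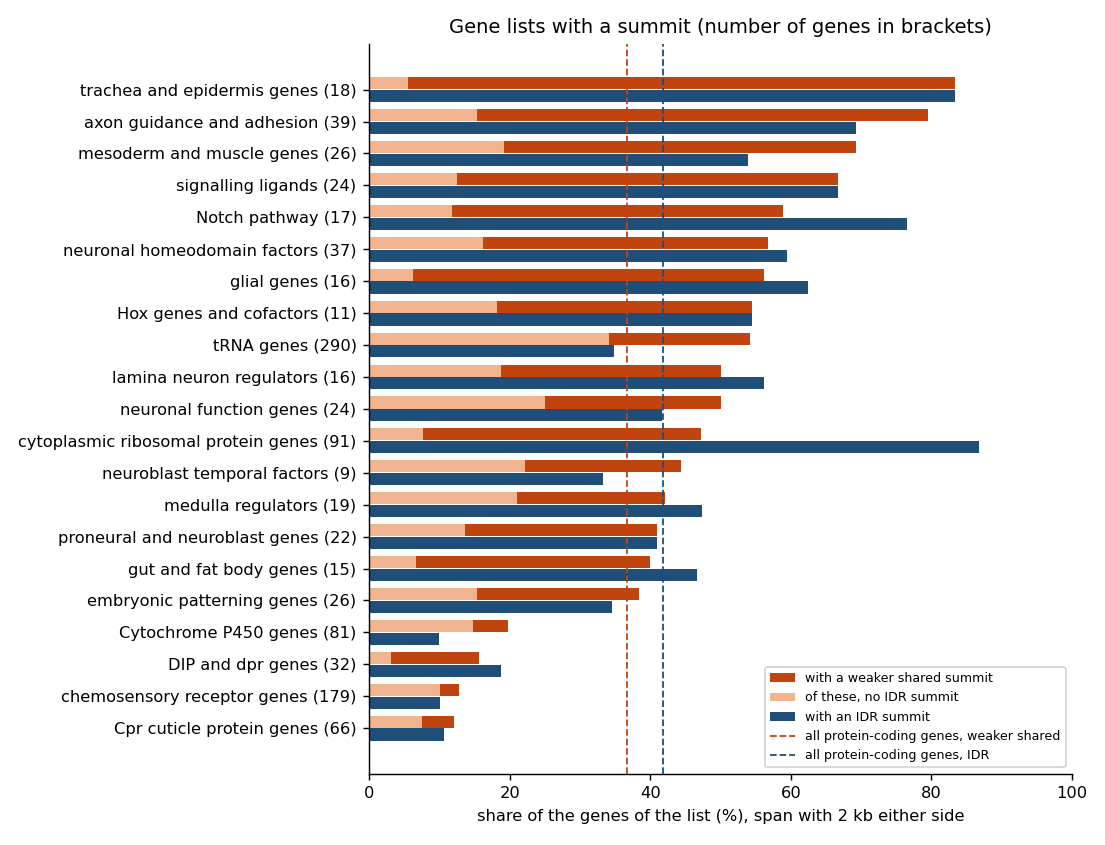
Share of the genes of each list with a weaker shared summit, in percent, with the part that has no IDR summit in a lighter shade, and below it the share with an IDR summit, counted over the span of a gene extended by 2 kb at each end. Dashed lines mark all protein-coding genes. Trachea and epidermis genes stand highest for weaker shared peaks with 83.3%, Cpr genes lowest with 12.1%, and cytoplasmic ribosomal protein genes have 47.3% against 86.8% for IDR peaks.

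The largest gap between the kinds of peak among the lists was at cytoplasmic ribosomal protein genes. Of 91, 43 (47.3%) had a weaker shared summit and 79 (86.8%) an IDR summit, and 7 had a weaker shared summit only, led by RpL40 (122), RpS28-like (113, in the promoter of numb) and RpL6 (112), while RpL10Aa, RpL21 and RpL22-like had neither. Within 100 bp of the gene span the count of ribosomal protein genes with a weaker shared summit was 9. tRNA genes showed the opposite order, with a weaker shared summit at 157 of 290 (54.1%) and an IDR summit at 101 (34.8%). Within 100 bp of a tRNA gene lay 39 weaker shared summits (0.447%), 7 IDR summits (0.0883%) and 40 weaker unshared summits (0.319%), in 0.0582% of the bases. tRNA genes lie in clusters of near-identical copies, and how the authors placed reads that match several copies is not given in the sources used here.

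Terminal gene families had few summits of either kind. Median gene spans were short for chemosensory receptor (1691 bp), Cytochrome P450 (2099 bp) and Cpr genes (1125.5 bp), and long for DIP and dpr genes (32525.5 bp). Chemosensory receptor genes had weaker shared summits at 23 of 179 (12.8%) and IDR summits at 18, and 18 of the 23 had no IDR summit. The strongest of these were near Ir48c (147), Gr93b (141), Or71a (134, in the promoter of Plp) and Or45b (132), and Gr10a, Gr10b and Gr21a had neither. Within 100 bp of the gene span 4 of the 179 had a weaker shared summit. DIP and dpr genes, immunoglobulin proteins of synaptic partner matching, had one at 5 of 32 (15.6%), against an IDR summit at 6, with dpr18 (59.7) the only gene with a weaker shared summit without an IDR summit, and DIP-beta, DIP-delta and DIP-epsilon without either. Cytochrome P450 genes had one at 16 of 81 (19.8%), against an IDR summit at 8, led among those without an IDR summit by Cyp311a1 (124, in the promoter of Usp7), Cyp313b1 (109), Cyp4d21 (108, in the promoter of CG6739) and Cyp12e1 (106), and Cyp12a4, Cyp12a5 and Cyp12b2 had neither. Cpr cuticle protein genes had one at 8 of 66 (12.1%), against an IDR summit at 7, with Cpr65Ec (117, in the promoter of form3), Cpr66Cb (91.1, in the promoter of Pex2), Cpr78Cc (86.4) and Cpr35B (80.0) without an IDR summit and Cpr11A, Cpr12A and Cpr23B without either.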

How the data were processed

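Peaks of 2 biological replicates, of the pooled replicates and of the IDR set were read from narrowPeak lists on dm6. Per the deposited text files, each list was called with the same control file. Aligner, caller and IDR threshold: not given in the sources used here. Signal values are a score deposited by the authors, on a scale of its own in each list, and replicates were therefore compared by rank. The deposited −log10 q-value was used as a description only. Per the labels the age comes from the source name, as the age field cannot be an embryo's age, and the antibody from the description, as the antibody field names bsh.

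Peaks were placed on genome release 6 with Ensembl release 115 genes, using scipy 1.17.1 and statsmodels 0.14.6 (also numpy 2.4.6, pandas 2.3.3 and matplotlib 3.10.9) under Python 3.11.15. A summit took the first fitting class in this order: promoter (500 bp), UTR (5′ before 3′), coding exon, any other exon, intron, intergenic. Fisher and McNemar tests were exact, two-sided and adjusted by Benjamini-Hochberg within each family at 0.05. The McNemar test on 6-mers and the Mantel-Haenszel test were checked on simulated data with known answers. Peaks are not replicates, and tests cover counting error only. The 21 gene lists and 22 motifs, like the peaks themselves, were chosen with earlier results of these data known; 9 listed symbols did not match and were left out. The text names bsh, the genes whose TSS is nearest to the 20 strongest peaks and to the 10 of best worse rank, the 10 with most summits, and per list up to 4 with the strongest peak and no IDR summit and 3 with neither in alphabetical order. A few genes that this rule names are not reported here.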

Additional observations from a re-analysis of the deposited data

How the results depend on the processing

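The alternatives changed the rule for weaker shared peaks, the promoter width, the windows and the gene spans. The number of peaks was 5792 with 50 bp between summits and 4367 with only those of higher signal value. It was between 13158 and 14313 when a summit was asked for in only 1 of the replicate lists. That alternative is called with 1 replicate, or without the other. It still used the pooled list and the IDR peaks of both replicates, so it is not an analysis of 1 replicate alone. Calls against IDR peaks were lost in the peaks of higher signal value (odds ratios 0.956 for promoters, 1.95 for coding exons, 1.00 for introns, 1.04 for intergenic sequence), and for introns also at 50 bp (1.05) and with promoters of 250 bp (1.00). Against weaker unshared peaks, introns lost the call with promoters of 250 bp (0.947) and with 1 replicate (0.952 to 0.987), and intergenic sequence gained it in the peaks of higher signal value (0.821) and with promoters of 1000 bp (0.913), and with 1 replicate had 0.921 (call gained without replicate 1) to 0.981. With 1 replicate, the arm comparisons past the threshold numbered 1 (without replicate 1) to 3, the motifs that differed from weaker unshared peaks 3 (without replicate 1) to 7, and the less frequent 6-mers 229 (without replicate 1) to 307. Genes with a weaker shared summit numbered 2343 by span alone and 9074 with 10 kb, and those without an IDR summit 1106 and 1178. Within bins of 2000 pooled ranks, chosen after seeing the data, the odds ratios against weaker unshared peaks were 0.959 for promoters, 0.880 for coding exons, 1.04 for introns, 0.947 for the DRE and 0.942 for the TATA sequence, and 0 motifs differed by the Mantel-Haenszel test. The cause was not tested. The other 108 values of shares and counts stayed on their side of the threshold or, for counts, within 1.5 times. Coding exon odds ratios stayed past it but moved to 15.4 and 17.7 against IDR peaks and to 0.406 and 0.480 against weaker unshared peaks with 1 replicate, and the second to 0.0552 in the peaks of higher signal value, where the DRE odds against flanks were 8.88. Of the values of single motifs and 6-mers, chosen after seeing the data, 259 stayed on their side of the threshold, 17 lost a call, 5 gained one, and 2 that had passed it turned, both in the bins. Values that had not passed it also crossed 1, among them the DRE against IDR peaks (0.883 with windows of 100 bp either side), forkhead sites against IDR peaks (0.974 without replicate 2), Grh sites against flanks (1.44 with the flank to the left) and intergenic sequence against weaker unshared peaks (1.05 in the bins). No paired analysis was possible because there is 1 group. Depth is unknown.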
